A study of Mus musculus with 8 samples.

Results

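Replication initiation sites (ISs) at the 3′ ends of protein-coding genes were examined in the mouse B cell lymphoma line CH12. An IS counted as a 3′ end IS where its nearest edge lay within 1 kb of the 3′ end of a protein-coding gene record (GENCODE M1, mm9) and more than 1 kb from the transcription start site (TSS) of every protein-coding transcript, on the 16 autosomes other than 10, 15 and 16. The rule used positions only. It gave 593 of the 31414 ISs on these chromosomes (39116 in all) in the merged table of Rif1KO and WT cells, and 1784 of 108860 (129937 in all) in that of Rif1KO_shMcm6 and Rif1KO_shLacZ cells. These were 1.89% (95% Wilson interval 1.74 to 2.04%) and 1.64% (1.57 to 1.72%) of ISs. A further 134 and 363 ISs lay as near to a gene end but also within 1 kb of a TSS, and were left out.

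DNA replication starts at many sites, where MCM helicases loaded onto DNA ahead of S phase are activated. Short nascent strand sequencing (SNS-seq) isolates the short new leading strands made next to such sites, which carry an RNA primer and so resist digestion by lambda exonuclease. Read density at an IS follows how often replication started there in the population. At the 3′ end of a gene the transcript is cleaved and polyadenylated, and RNA polymerase runs on for some distance before it leaves the template, so sites on either side of the end lie in transcribed sequence of different kinds. RIF1 is a chromatin protein that sets replication timing, and MCM6 is a subunit of the MCM helicase.

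The 8 libraries were 2 each of WT cells, Rif1-knockout cells (Rif1KO), Rif1-knockout cells with a short hairpin against LacZ, a control (Rif1KO_shLacZ), and Rif1-knockout cells with a hairpin against Mcm6 (Rif1KO_shMcm6). Each group was grown with IL4, CD40 and TGF beta stimulation, and the hairpin groups both lack RIF1, so MCM6 depletion was measured only in cells without it. The hairpins were delivered by lentivirus, and each group is a derivative of 1 cell line. The libraries are of DNA and hold no expression values against which to check the cell type, the knockout or the knockdown. No 3′ end IS was found at Rif1 or Mcm6 themselves.

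The files hold 1 value per IS and condition, with both libraries pooled, as log2 of the reads at the IS scaled to 1000000 reads inside ISs (RPM). No spread between replicates can be given, and no difference below was tested. The deposited values were whole multiples of the value of 1 read, so the pooled reads were recovered. The conditions held 3350255 (WT), 3724571 (Rif1KO), 21071351 (Rif1KO_shLacZ) and 23602750 (Rif1KO_shMcm6) reads in ISs. A 3′ end IS had a median of 83, 90, 153 and 170 reads, with a range of 28 to 1324. Errors and intervals below cover counting only, or the spread among ISs, and PCR copies make even the counting errors too small. The tables were scaled separately, so levels are compared only within a table.

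Sequences of named 3′ end ISs that lie wholly outside annotated exons are shown first, since base composition and repeats run through the results. Each is the central 300 bases of the IS in mm9 and reads 5′ to 3′ on the strand of the gene. Capitals mark a G-quadruplex motif, which is 4 runs of 3 or more G with 1 to 7 bases between runs, or the same of C where the G runs are on the other strand. The first pair, beyond the ends of Zfp385b and Myo18b, are among the densest ISs in WT and Rif1KO cells and carry the motif on opposite strands.
Zfp385b, chr2:77247589-77247888, minus strand: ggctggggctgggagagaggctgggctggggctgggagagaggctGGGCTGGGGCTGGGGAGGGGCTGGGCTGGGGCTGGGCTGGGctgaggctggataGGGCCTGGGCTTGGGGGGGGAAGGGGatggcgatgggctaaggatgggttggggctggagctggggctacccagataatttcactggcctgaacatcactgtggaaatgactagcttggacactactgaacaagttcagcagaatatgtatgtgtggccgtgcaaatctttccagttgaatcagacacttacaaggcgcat
Myo18b, chr5:113116450-113116749, minus strand: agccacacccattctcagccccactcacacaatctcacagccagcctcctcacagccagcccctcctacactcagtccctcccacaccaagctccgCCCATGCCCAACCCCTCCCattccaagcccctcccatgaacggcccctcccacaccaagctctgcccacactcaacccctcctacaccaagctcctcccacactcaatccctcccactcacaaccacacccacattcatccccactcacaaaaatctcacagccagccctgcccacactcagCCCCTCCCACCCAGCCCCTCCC
The next pair, beyond the ends of Pdlim7 and Atp1a4, are among the ISs that were lowest in Rif1KO relative to WT cells.
Pdlim7, chr13:55596459-55596758, minus strand: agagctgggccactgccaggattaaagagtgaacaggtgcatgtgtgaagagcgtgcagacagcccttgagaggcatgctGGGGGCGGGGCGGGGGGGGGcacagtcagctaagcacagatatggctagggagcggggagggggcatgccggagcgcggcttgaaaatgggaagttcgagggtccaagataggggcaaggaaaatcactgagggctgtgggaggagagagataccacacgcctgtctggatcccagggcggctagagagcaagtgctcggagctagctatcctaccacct
Atp1a4, chr1:174152613-174152912, minus strand: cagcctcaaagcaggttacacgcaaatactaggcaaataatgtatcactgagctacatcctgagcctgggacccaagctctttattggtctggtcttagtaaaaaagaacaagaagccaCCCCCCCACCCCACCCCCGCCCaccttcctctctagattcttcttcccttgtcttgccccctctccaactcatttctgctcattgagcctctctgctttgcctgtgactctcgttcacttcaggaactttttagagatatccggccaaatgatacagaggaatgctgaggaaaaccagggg
The next group are the ISs beyond Nmi, Sgms2 and 4930579F01Rik, among the most raised in Rif1KO_shMcm6 cells, and that beyond Bcl11a, a B cell transcription factor gene. Their sequence consists largely of short repeated units.
Nmi, chr2:51802224-51802523, minus strand: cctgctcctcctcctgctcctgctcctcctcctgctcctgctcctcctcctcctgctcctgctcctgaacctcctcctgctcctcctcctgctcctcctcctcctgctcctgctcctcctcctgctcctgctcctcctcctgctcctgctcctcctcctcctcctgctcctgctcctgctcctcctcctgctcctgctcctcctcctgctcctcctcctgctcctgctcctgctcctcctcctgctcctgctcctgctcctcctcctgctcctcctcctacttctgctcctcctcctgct
Sgms2, chr3:131020879-131021178, minus strand: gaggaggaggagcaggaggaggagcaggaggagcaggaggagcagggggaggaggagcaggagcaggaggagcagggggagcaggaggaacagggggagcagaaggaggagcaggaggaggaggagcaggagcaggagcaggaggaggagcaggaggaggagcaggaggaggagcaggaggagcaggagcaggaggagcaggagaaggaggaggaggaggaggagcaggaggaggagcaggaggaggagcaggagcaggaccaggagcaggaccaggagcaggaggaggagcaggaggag
4930579F01Rik, chr3:137826151-137826450, minus strand: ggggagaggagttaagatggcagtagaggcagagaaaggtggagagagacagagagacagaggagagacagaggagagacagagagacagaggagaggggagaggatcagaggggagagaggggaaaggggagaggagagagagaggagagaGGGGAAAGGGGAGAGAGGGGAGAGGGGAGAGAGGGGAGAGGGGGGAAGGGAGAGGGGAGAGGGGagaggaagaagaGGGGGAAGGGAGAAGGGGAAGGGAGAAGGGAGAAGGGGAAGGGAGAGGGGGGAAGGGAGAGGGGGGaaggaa
Bcl11a, chr11:24074847-24075146, plus strand: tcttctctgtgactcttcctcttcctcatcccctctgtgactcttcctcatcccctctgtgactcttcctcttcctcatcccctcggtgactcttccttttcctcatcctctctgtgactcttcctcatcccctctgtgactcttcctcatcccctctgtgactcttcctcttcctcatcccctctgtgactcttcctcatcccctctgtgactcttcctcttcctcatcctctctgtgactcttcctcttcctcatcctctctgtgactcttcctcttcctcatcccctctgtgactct
The last, beyond Armc6, had the lowest fold change among the denser ISs after MCM6 depletion and has no such repeats.
Armc6, chr8:72742462-72742761, minus strand: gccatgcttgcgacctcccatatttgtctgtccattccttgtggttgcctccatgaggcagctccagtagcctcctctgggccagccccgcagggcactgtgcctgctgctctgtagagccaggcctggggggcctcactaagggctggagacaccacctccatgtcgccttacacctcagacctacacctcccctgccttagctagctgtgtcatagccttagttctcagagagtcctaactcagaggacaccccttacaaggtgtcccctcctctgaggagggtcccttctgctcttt

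Over the 1 kb on either side of gene ends, ISs were no more frequent than 1 to 5 kb beyond them. Over sequence more than 1.5 kb from a TSS, the table of Rif1KO and WT cells held 14.1 IS centres per Mb. The last 1 kb of genes held 14.0 (95% Poisson interval 12.2 to 16.01) and the first 1 kb beyond them 16.1 (14.2 to 18.2). In the table of the hairpin groups the overall rate was 50.1 per Mb. There the last 1 kb of genes held 37.6 (34.6 to 40.8) and the first 1 kb beyond them 47.5 (44.2 to 50.9). The intervals on either side of the gene end overlapped in the first table and not in the second. The interval of the first 1 kb beyond genes lay just above the overall rate in the first table. That of the last 1 kb of genes lay below it in the second. In the first table the last 500 bp of the gene held 12.1 per Mb (9.79 to 14.9) and the first 500 bp beyond it 17.4 (14.6 to 20.6). In the second these held 38.4 (34.1 to 43.0) and 47.3 (42.6 to 52.3). Between 1 and 5 kb beyond the end it was 17.0 (16.02 to 18) and 51.4 (49.7 to 53.1) per Mb. GC content over all gene ends was 46.1% in the 100 bp about 250 bp before the end, 38.4% in the last 100 bp and 45% at 150 bp beyond it.

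**Figure D1:**
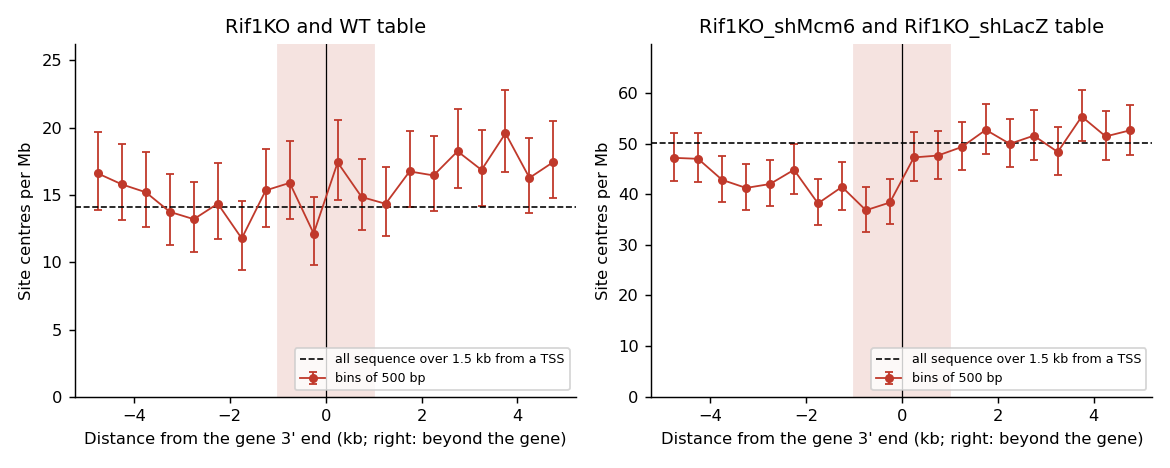
IS centres per Mb (vertical axis) by distance from the 3′ end of protein-coding genes in kb (horizontal axis, positive beyond the gene) in 500 bp bins, leaving out sequence within 1.5 kb of a TSS. Bars are 95% Poisson intervals, the dashed line is the rate over all such sequence, and the shading marks 1 kb on either side of the end. The rate showed no peak at gene ends, and in the hairpin table it rose from 38.4 to 47.3 per Mb across the end.

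Most gene ends had no IS. Of 18902 protein-coding genes, 602 had a 3′ end IS in the first table (3.18%, 95% Wilson interval 2.94 to 3.45%) and 1767 in the second (9.35%, 8.94 to 9.77%). Few ends had more than 1: 11 and 94 genes were the nearest to several, with at most 3. Genes with such an IS had a median length of 15951 bp and 17090 bp, and all genes 15376 bp. Another gene ended on the opposite strand within 1 kb at 6.15% and 8.21% of the genes with an IS, and at 8.79% of all genes, so convergent gene ends were not more frequent among them.

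The ISs lay on both sides of the gene end. The centre lay beyond the end in 322 of 593 (54.3%) and 1016 of 1784 (57.0%), and 103 and 413 covered the end itself. Coding sequence was covered by 130 (21.9%) and 437 (24.5%), and a further 154 (26.0%) and 485 (27.2%) covered untranslated sequence but no coding sequence. Those outside every protein-coding gene numbered 240 (40.5%) and 726 (40.7%). The median distance to the nearest TSS was 7725 and 8506 bp. Median widths were 462 and 625 bp, against 445 and 599 bp for all ISs, so 3′ end ISs were slightly wider.

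3′ end ISs were slightly denser than most other ISs and less dense than those at promoters. In WT cells their density ranged from 3.21 to 6.87 log2 RPM with a median of 4.63 (95% order-statistic interval 4.58 to 4.68), and in Rif1KO cells from 3.23 to 6.78 with a median of 4.59 (4.53 to 4.64). ISs within 1 kb of a TSS had medians of 4.84 and 4.66, those elsewhere in genes 4.48 and 4.46, and intergenic ISs 4.39 and 4.41. In Rif1KO_shLacZ cells the 3′ end ISs ranged from 0.41 to 5.72 with a median of 2.86 (2.81 to 2.91), and in Rif1KO_shMcm6 cells from 0.96 to 5.81 with a median of 2.85 (2.81 to 2.88). Medians were then 2.96 and 2.92 at promoters, 2.78 and 2.78 in gene bodies and 2.72 and 2.74 in intergenic sequence. The excess of the 3′ end median over that of all other ISs was 0.19 in WT, 0.15 in Rif1KO, 0.11 in Rif1KO_shLacZ and 0.09 in Rif1KO_shMcm6 cells. Per kb of IS the excess was 0.12, 0.05, 0.04 and 0.01, and the part of width in it was not tested. Of the 3′ end ISs, 16.02% in WT cells and 15.8% in Rif1KO_shLacZ cells were in the densest decile of all ISs. Those covering coding sequence had the highest median, 4.91 in WT and 3.13 in Rif1KO_shLacZ cells, and also the highest GC content of these positions, 55.6% and 54.1%, and the largest median width, 512 and 714 bp.

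**Figure D2:**
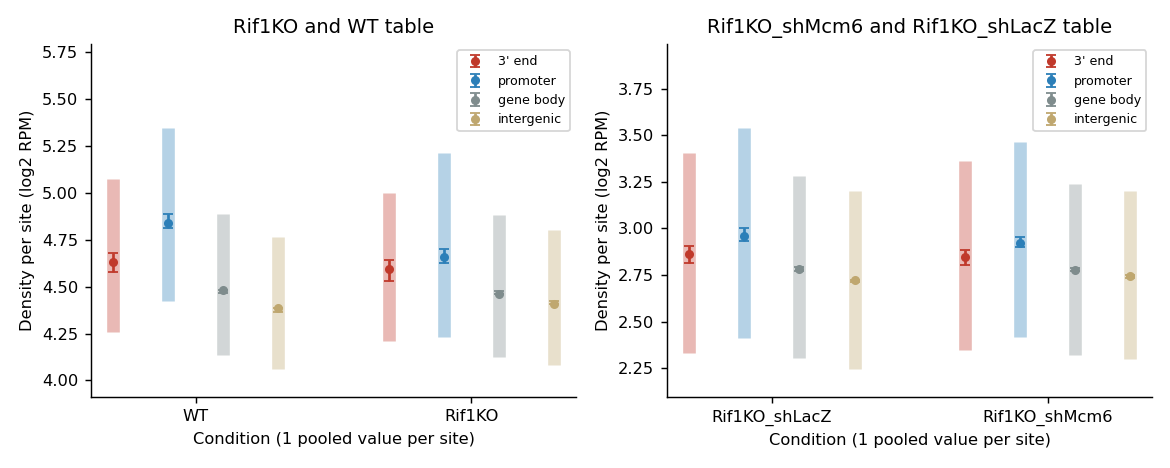
Read density per IS in log2 RPM (vertical axis) for ISs at gene 3′ ends, at promoters (within 1 kb of a TSS), elsewhere in genes and in intergenic sequence, in each condition (horizontal axis). Points are medians with 95% order-statistic intervals and bars span the quartiles. The median of 3′ end ISs lay between that of promoters and those of gene bodies and intergenic ISs in each condition.

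The densest 3′ end ISs in WT and Rif1KO cells were at genes of varied kinds. The IS 1296 bp beyond the end of Myo18b, an unconventional myosin, reached 6.87 log2 RPM in WT cells (393 reads) and 6.78 in Rif1KO cells (409 reads). The IS that starts at the last base of Lyl1, a haematopoietic transcription factor gene, and runs beyond it through annotated untranslated sequence had 6.69 and 6.44, and that beyond Zfp385b, a zinc finger gene, 6.40 and 6.52. The log2 fold changes of these 3 ISs were -0.10 ± 0.10, -0.25 ± 0.11 and 0.13 ± 0.12 (counting SE). Of the 12-base words in the central 500 bases of the Myo18b and Zfp385b ISs, 23.5% and 21.9% occurred more than once. The IS beyond Dpf1, a chromatin remodelling subunit gene of neurons, had 6.46 and 6.43. The other densest ISs were at the predicted genes Gm10801 (6.52 and 6.59) and Gm10717 (6.50 and 6.33). Among their 12-base words 35.6% and 39.1% recurred, and GC content was 35.2% and 34.0%. Neither overlapped a 3′ end IS of the second table. Their read counts are uncertain, since only uniquely aligned reads were kept and how that acted there was not tested.

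In the hairpin groups the densest 3′ end IS lay 1751 bp beyond the predicted gene Gm10354, with 5.72 log2 RPM in Rif1KO_shLacZ cells (1107 reads) and 5.81 in Rif1KO_shMcm6 cells (1324 reads). It was followed by the IS in the last exons of Gpr108, a G protein-coupled receptor family gene, at 5.40 in both conditions. Next were those at Phyhip (5.22 and 5.20), at Lars2, the mitochondrial leucyl-tRNA synthetase (5.20 and 5.16), at Erf, an ETS repressor (5.22 and 5.12), and at Ccnk, cyclin K (5.10 and 4.98). All fold changes of these 6 lay between -0.11 and 0.09. The densest ISs of the first table had fold changes from -0.25 to 0.13.

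Loss of RIF1 was compared first. Density at 3′ end ISs was slightly lower in Rif1KO than in WT cells. The median log2 fold change was -0.04 (95% order-statistic interval -0.07 to -0.03), a ratio of 0.970, and 347 of 593 (58.5%, 54.5 to 62.4%) were below 0. Over all ISs the median was 0.01. Promoters had -0.13 (-0.15 to -0.12), gene bodies -0.01 and intergenic ISs 0.04. The share of reads that fell in 3′ end ISs was 2.15% in WT and 2.07% in Rif1KO cells. The standard deviation of the fold change among 3′ end ISs was 0.23, close to the median counting SE of 0.22 per IS. The median was below 0 on 12 of 16 chromosomes, from -0.14 on chromosome 17 to 0.07 on chromosome 13.

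At a 1.5-fold threshold, 0 of 593 were higher in Rif1KO cells, which allows a share of up to 0.506%, against 0.945% of all ISs. In the other direction 11 were lower (1.85%, 95% Wilson interval 1.04 to 3.29%), against 1.35% of all ISs. The share of all ISs that was lower lay inside the interval of the 3′ end ISs, and the share that was higher lay above the limit that a count of 0 allows. By a Wilson interval 0 of 593 allows up to 0.644%. On that measure the difference from 0.945% was lost where ISs were placed by their centres, with 1 of 500 higher (0.0353 to 1.12%). It was also lost within 500 bp, with 0 of 371 (up to 1.02%), and over 5 kb from a TSS, with 0 of 365 (up to 1.04%). So it was for ISs called in both conditions, with 0 of 389 (up to 0.978%). It held with gene ends taken from transcripts, with 2 of 844 higher, and within 2 kb, with 1 of 1051. Promoters also had a low share, 5 of 2096 (0.239%). The 11 lay at Lgals7, Pecam1, Nhlh1, Nup210, Thy1, Ssrp1, Aim2, Zfp787, Rcor2, Arhgef2 and Pdlim7. Their log2 fold changes ran from -0.85 ± 0.30 at Lgals7, a galectin gene, where 60 WT reads faced 37 Rif1KO reads, to -0.59 ± 0.22 at Pdlim7. Most were shallow. Of the 11, 9 were called in WT cells only, and their WT reads ran from 60 to 77. Among ISs called in both conditions, 2 of 389 were lower, at Ssrp1 and Pdlim7.

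Among the denser 3′ end ISs, those at or above the median of the mean density, the lowest was 1079 bp beyond Ssrp1, which encodes a subunit of the histone chaperone FACT. It had 191 reads and 5.83 log2 RPM in WT cells and 135 reads and 5.18 in Rif1KO cells, a log2 fold change of -0.65 ± 0.16, and a GC content of 68.3%. This IS lay in the record of another protein-coding gene, 1954 bp from a TSS. With an observed to expected CpG ratio of 0.82 it met the CpG island measure used below. The IS beyond Pdlim7, a PDZ and LIM domain gene, fell from 4.94 to 4.35 log2 RPM. That in Gpr108 had 5.40 and 4.84 (-0.55 ± 0.18), and that beyond Atp1a4, a sodium pump subunit gene of sperm, 5.26 and 4.75 (-0.51 ± 0.19). At the other extreme, the IS in the 3′ untranslated region of Bnc2, a zinc finger gene, had 4.47 in WT and 4.99 in Rif1KO cells (0.52 ± 0.21), and a GC content of 36.1%. It was followed by Ptcd2 (0.43 ± 0.15), the sperm hyaluronidase gene Spam1 (0.40 ± 0.17) and the sperm gene Izumo2 (0.38 ± 0.21). These 4 stayed under 1.5-fold. The ISs that overlapped Ssrp1, Pdlim7, Gpr108, Atp1a4, Bnc2 and Izumo2 in the hairpin table had fold changes after MCM6 depletion of -0.31, -0.20, 0.01, -0.19, 0.50 and -0.27. Those at Ptcd2 and Spam1 overlapped no 3′ end IS there.

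Depletion of MCM6 in cells without RIF1 was compared next. The median log2 fold change of 3′ end ISs was -0.04 (-0.06 to -0.03), a ratio of 0.971, with 1027 of 1784 (57.6%, 55.3 to 59.8%) below 0. All ISs had a median of -0.01, promoters -0.04, gene bodies -0.04 and intergenic ISs 0.01. Their share of reads was 1.81% in Rif1KO_shLacZ and 1.77% in Rif1KO_shMcm6 cells. Fold changes varied more than counting allowed for, with a standard deviation of 0.31 and a median counting SE of 0.16. The median was below 0 on all 16 chromosomes, from -0.10 on chromosome 17 to -0.02 on chromosome 13.

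At 1.5-fold, 79 were higher in Rif1KO_shMcm6 cells (4.43%, 95% Wilson interval 3.57 to 5.48%) against 4.82% of all ISs, and 23 were lower (1.29%, 0.861 to 1.93%) against 1.5% of all ISs. Both shares of all ISs lay inside the intervals of the 3′ end ISs. Of the 79, 65 were called in Rif1KO_shMcm6 cells only, and of the 23, 14 were called in Rif1KO_shLacZ cells only. Among the 1207 called in both conditions, 13 were higher and 9 lower. Whether an IS was called in 1 condition itself depends on its densities there.

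The most raised of the denser 3′ end ISs lay 1633 bp beyond Nmi, an interferon-induced gene. It had 277 reads and 3.72 log2 RPM in Rif1KO_shLacZ cells and 1241 reads and 5.72 in Rif1KO_shMcm6 cells, a log2 fold change of 2.0 ± 0.10. The IS beyond Sgms2, a sphingomyelin synthase gene, had 3.55 and 4.85 (1.30 ± 0.11), while the IS that overlapped it in the other table had 5.34 in WT and 5.30 in Rif1KO cells. Those at Gm11570 and 4930579F01Rik had 1.17 ± 0.17 and 1.14 ± 0.14. The lowest of the denser ISs were beyond Armc6, with 267 and 145 reads (-1.04 ± 0.15), and over the end of Stard3, a cholesterol transfer gene, with 216 and 122 reads (-0.99 ± 0.16). They were followed by Mettl11a, an N-terminal methyltransferase gene (-0.62 ± 0.13), and the galectin gene Lgals4 (-0.60 ± 0.14). Each of these 8 had at least 104 reads in both conditions.

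**Figure D3:**
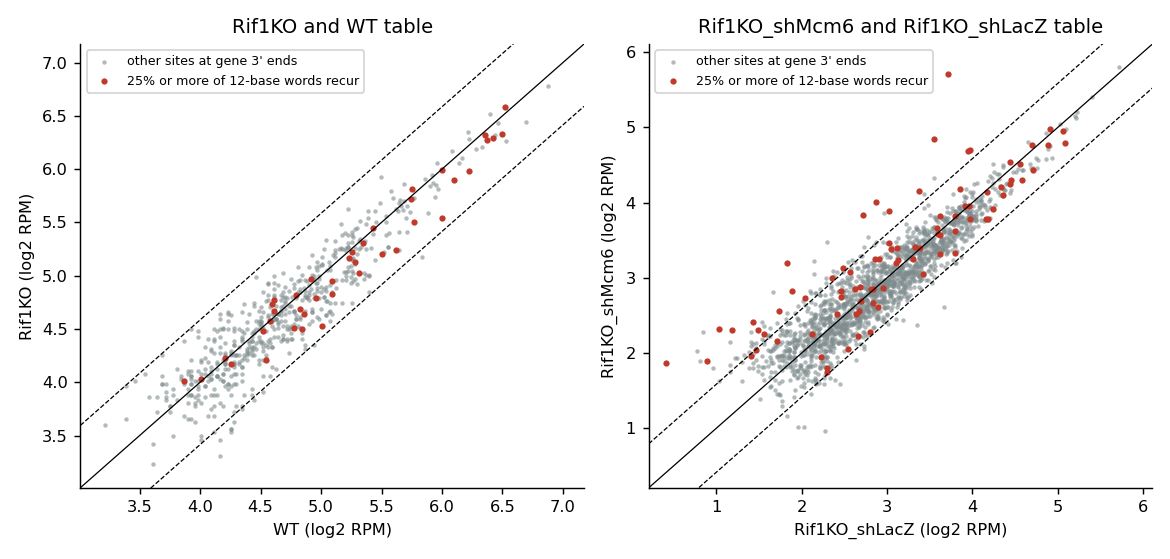
Read density of each 3′ end IS in log2 RPM, control condition on the horizontal and Rif1KO or Rif1KO_shMcm6 on the vertical axis. The solid line marks equal density, dashed lines a 1.5-fold difference, and red points ISs in which at least 25% of the 12-base words of the central 500 bases recur. Of the 79 points above the upper dashed line in the hairpin plot 21 are red, and no point of the Rif1KO and WT plot lies above it.

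Repeats were more frequent among the 3′ end ISs that were higher after MCM6 depletion than among the others. In the central 500 bases, 91.8% of the 12-base words of the Nmi IS occurred more than once, as did 83.8% for Sgms2 and 47.0% for 4930579F01Rik. Gm11570 had 3.68%, and Bcl11a, which did not pass 1.5-fold, 92.0%. The median was 2.66% over the 79 higher ISs and 0 over 3′ end ISs. The measure, and a limit of 25%, were chosen after these sequences had been seen. By it, 21 of the 79 higher ISs were repetitive (26.6%), 0 of the 23 lower ones, which allows a share of up to 13.0%, and 64 of the 1682 others (3.80%). Among all ISs, 25.2% of the 5248 higher were repetitive, and 3.46% of those that did not pass the threshold in either direction. The excess among higher ISs was thus not particular to gene ends. Of the 1628 lower ISs in all, 6.76% (5.64 to 8.08%) were repetitive, also above 3.46%. Of the 85 repetitive 3′ end ISs 24.7% were higher, against 3.41% of the other 1699. Without repetitive ISs, 3.78% of all ISs were higher. In the table of Rif1KO and WT cells, 40 of 593 3′ end ISs were repetitive, with a median log2 fold change of -0.09 and 0 past the threshold, and the others had -0.04. Reads were kept only where they aligned uniquely, and how unique alignment acted on these repeats was not tested.

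3′ end ISs were richer in GC than gene body and intergenic ISs, and their fold change fell with GC content. Median GC content was 50.6% (49.8 to 51.1%) and 49.5% (49.1 to 50.1%) in the tables, against 48.1% and 45.8% in gene bodies, 45.8% and 43.4% in intergenic ISs, and 58.2% and 53.9% at promoters. ISs centred inside the gene end had 52.6% and 52.1%, those beyond it 49.5% and 47.9%. CpG islands were rare. By a GC content of at least 50% and an observed to expected CpG ratio of at least 0.6, 3.88% and 1.57% of 3′ end ISs qualified, against 40.7% and 20.9% of promoter ISs.

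The 3′ end ISs were divided by GC content into 3 groups of equal size. After loss of RIF1, the median log2 fold change was 0.03 (-0.01 to 0.06) at a GC content up to 47.7%, -0.06 (-0.10 to -0.02) in the middle group and -0.10 (-0.15 to -0.07) over 54.0%. Gene body ISs in the same ranges had 0.05, -0.03 and -0.09, intergenic ISs 0.08, -0.01 and -0.06, and promoters -0.01, -0.04 and -0.19. Of the 11 lower ISs, 8 were in the high group. After MCM6 depletion the medians of 3′ end ISs were -0.01 (-0.03 to 0.01), -0.05 (-0.08 to -0.03) and -0.10 (-0.12 to -0.06), and those of gene bodies -0.00073, -0.06 and -0.11. The fall with GC content was thus seen in each kind of IS in both tables. Spearman's rho of GC content and fold change over 3′ end ISs was -0.283 (n = 593) and -0.126 (n = 1784), and over all ISs -0.325 and -0.166. These are descriptions across ISs of the same pooled libraries, and the part of base composition in the read counts was not tested.

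**Figure D4:**
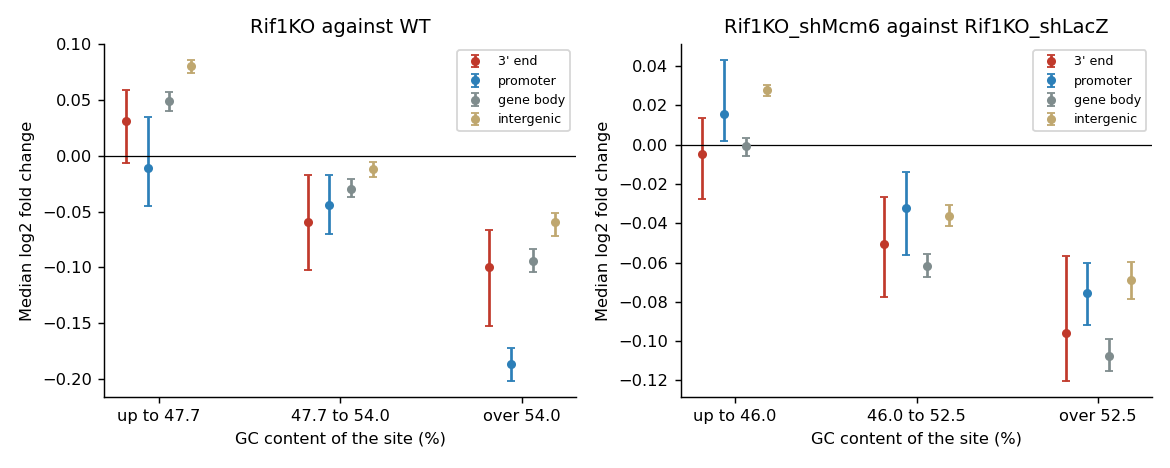
Median log2 fold change (vertical axis) of 3′ end, promoter, gene body and intergenic ISs in 3 ranges of GC content (horizontal axis), which divide the 3′ end ISs into groups of equal size. Bars are 95% order-statistic intervals. For 3′ end ISs the medians went from 0.03 to -0.10 after RIF1 loss and from -0.01 to -0.10 after MCM6 depletion as GC content rose, and the other kinds fell too.

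G-quadruplex motifs were more frequent at 3′ end ISs than in the genome, as at all ISs, and lay mostly on 1 side of the centre. In the central 500 bases, a motif was found in 434 of 593 (73.2%, 69.5 to 76.6%) and 883 of 1784 (49.5%, 47.2 to 51.8%). All ISs had 75.2% and 50.5%, inside these intervals. Of all 500-base windows of these chromosomes 8.38% held one, and of windows centred 250 bp beyond each gene end 11.2%. By strand, 29.8% and 22.1% of 3′ end ISs had G runs on the strand that matches the transcript, and 45.2% and 30.1% on the other strand. Gene body ISs had 31.7% and 21.8%, and 44.0% and 29.9%. Windows about all gene ends had smaller differences, with 4.68% on the transcript's strand and 5.29% on the other at 750 bp before the end, 4.17% and 5.02% at 250 bp before it, 5.83% and 5.79% at 250 bp beyond it and 5.07% and 5.52% at 750 bp beyond it. In 3 of these 4 windows the other strand had more, as in the ISs. The difference in strand was larger inside the gene end in the first table, with 28.8% and 49.8%, than beyond it, with 30.7% and 41.3%. In the second table the strands had 21.9% and 31.0% inside, and 22.3% and 29.4% beyond.

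Read 5′ to 3′ on the strand with the G runs, 809 of 984 motifs within 500 bp of the centre (82.2%, 79.7 to 84.5%) lay 5′ of it in the first table, at a median of 128 bases before it. In the second, 85.5% of 2683 (84.1 to 86.7%) lay 5′, at a median of 218 bases. All other ISs had 86.2% and 88.0%, above these intervals. Several motifs can belong to 1 IS, so the intervals are too narrow. 3′ end ISs with a motif were not denser than those without, with WT medians of 4.61 and 4.70 and Rif1KO_shLacZ medians of 2.69 and 3.01. Fold changes were alike, with medians of -0.05 with a motif and -0.04 without after RIF1 loss, and -0.06 and -0.04 after MCM6 depletion. The Zfp385b and Pdlim7 sequences above carry G runs on the gene's own strand and those of Myo18b and Atp1a4 on the other.

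**Figure D5:**
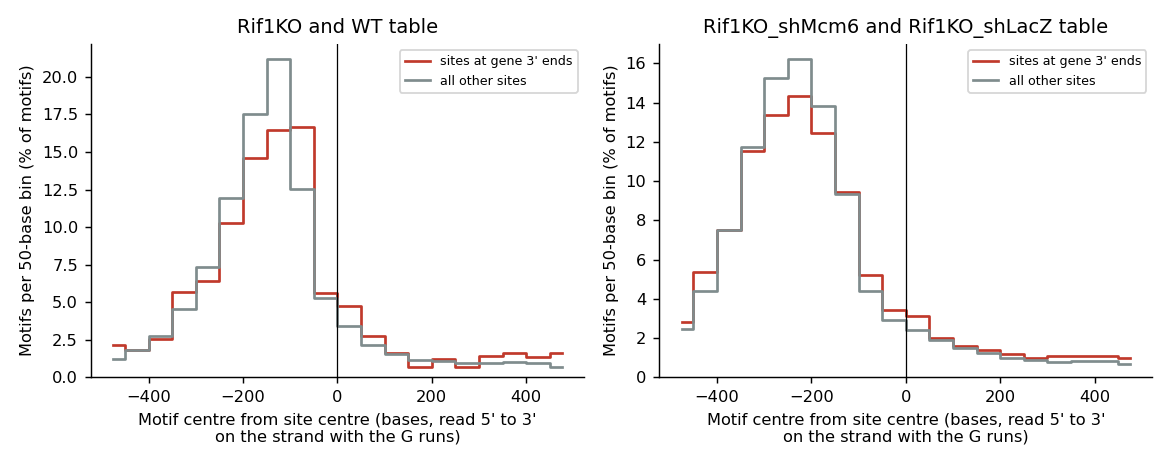
Position of G-quadruplex motifs around IS centres, read 5′ to 3′ on the strand with the G runs (horizontal axis, bases), as a percentage of motifs per 50-base bin (vertical axis), for 3′ end ISs and all other ISs. Of the motifs around 3′ end ISs, 82.2% and 85.5% lay 5′ of the centre, against 86.2% and 88.0% around other ISs.

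Most 3′ end ISs of the first table were also found in the second. Of the 593, 473 (79.8%) overlapped a 3′ end IS of the hairpin table, which held 26.3% of the 1784. Any IS of the hairpin table was overlapped by 499 of the 593 (84.1%, 81.0 to 86.9%), and by 84.0% of all ISs of the first table. In that direction the overlap was not particular to gene ends. In the other, 531 of the 1784 (29.8%, 27.7 to 31.9%) overlapped any IS of the first table, against 23.9% of all hairpin table ISs. Gene body ISs had 25.5%, intergenic ISs 22.0% and promoters 35.7%. At 467 pairs with exactly 1 partner the median log2 fold change was -0.04 after RIF1 loss and -0.14 after MCM6 depletion, and the pairs had a Spearman's rho of 0.097 between both fold changes, as a description. Both were below 0 at 211 pairs and above 0 at 52, with 63 below 0 after RIF1 loss only and 141 after MCM6 depletion only. Most pairs were below 0 in each contrast, so these counts do not by themselves show agreement. Over the 1784, Rif1KO_shLacZ density and fold change had a Spearman's rho of -0.331, and its part in the pairs' median was not tested. The contrasts share no library. The 1314 hairpin table ISs that overlapped no 3′ end IS of the first table were less dense, with a median of 2.64 log2 RPM in Rif1KO_shLacZ cells against 3.49 for the pairs. They held 75 of the 79 higher ISs, a share of 5.71% against 0.857% of the pairs, and 15 of the 23 lower ones.

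Genes of several classes were examined by their ends. Of 151 genes for developmental transcription factors, 10 (6.62%, 95% Wilson interval 3.64 to 11.8%) had a 3′ end IS in the first table and 26 (17.2%, 12.03 to 24.0%) in the second, against 3.18% and 9.35% of all genes. The densest in the hairpin groups were at Pax2, a kidney and eye regulator (4.66 and 4.81 log2 RPM), Hoxd13, a limb patterning gene (4.36 and 4.50), and Irx1 (4.24 and 4.33). None of the 10 passed 1.5-fold after RIF1 loss, against 2.29% of all ISs, and so few ISs cannot show a lower share. Of the 26, 3 were higher after MCM6 depletion and 0 lower, against 4.82% and 1.5% of all ISs. The 3, named after their values were seen, were Foxl2 (38 and 115 reads, 1.43 ± 0.27), Foxc2 (0.90 ± 0.18) and Hoxd4 (0.71 ± 0.18). Each was called in Rif1KO_shMcm6 cells only, and none was repetitive.

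Of 46 genes of B cell identity and receptor signalling, 2 (4.35%, 1.201 to 14.5%) and 8 (17.4%, 9.09 to 30.7%) had one. The shares over all genes, 3.18% and 9.35%, lay inside these intervals. None of these ISs passed 1.5-fold, against 2.29% of all ISs after RIF1 loss and 6.32% after MCM6 depletion. So few ISs cannot show a lower share. The IS in the 3′ untranslated region of Ebf1, an early B cell factor, had 4.79 log2 RPM in both WT and Rif1KO cells, and 3.72 and 3.52 in the hairpin groups. At the repetitive IS beyond Bcl11a the values were 2.86 and 3.25 (0.39 ± 0.15). Others of the second table were at Irf4, Cd74, Ms4a1, Lyn and Pax5, with fold changes from -0.56 ± 0.21 at Cd74, the invariant chain gene, to 0.30 ± 0.18 at Pax5.

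Of 41 replication genes, 0 had a 3′ end IS in the first table, which allows a share of up to 7.32%, against 3.18% of all genes. In the second, 1 had one (2.44%, 0.432 to 12.6%), against 9.35% of all genes, at the licensing factor gene Cdt1, with 2.32 and 2.30 log2 RPM. Both counts allow the share of all genes. Ribosomal protein genes had 3 (2.48%, 0.847 to 7.04%) and 6 (4.96%, 2.29 to 10.4%) of 121, processed copies included, and the densest in the hairpin groups were at Rps2-ps6 (3.40 and 3.36) and Rps9 (3.30 and 2.95). Only unique alignments were kept, so reads that match a copy and its parent gene alike are lost, and this loss was not measured. Histone genes had 2 (2.99%, 0.822 to 10.2%) and 3 (4.48%, 1.53 to 12.4%) of 67, the latter being Hist1h1c, a linker histone (3.85 and 3.77), Hist1h2bb (2.79 and 2.67) and Hist1h2ac (2.17 and 2.17). Zinc finger genes had 7 (2.06%, 1.001 to 4.19%) and 19 (5.59%, 3.61 to 8.56%) of 340. The intervals of the ribosomal and histone lists hold the share of all genes in both tables, and that of the zinc finger list in the first table only. The densest in the hairpin groups were at Zfp385b (4.86 and 4.93), Zfp428 (3.72 and 3.75) and Zfp395 (3.69 and 3.78). After RIF1 loss 1 of the 7 zinc finger ISs passed 1.5-fold, at Zfp787 (-0.61 ± 0.26), against 2.29% of all ISs. After MCM6 depletion none of those on the replication, ribosomal, histone and zinc finger lists did, against 6.32% of all ISs. With so few ISs on these lists, finding none cannot show a lower share.

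Values on either side of the 1 kb limit were as follows. The 47 ISs with an edge 901 to 1000 bp from a gene end in the first table had medians of 4.60 log2 RPM in WT and 4.53 in Rif1KO cells, and the 57 at 1001 to 1100 bp had 4.54 and 4.41. Their median log2 fold changes were -0.05 inside and -0.12 outside. In the second table the 149 just inside had 2.79 and 2.73 and the 127 just outside 2.79 and 2.79, with median log2 fold changes of -0.07 and -0.06. The nearest to the limit were at Actl6b inside (5.08 and 5.09) and 4932411G14Rik outside (5.13 and 5.31) in the first table, and at Hist1h2bb inside (2.79 and 2.67) and Bcar3 outside (2.66 and 2.65) in the second.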

How the data were processed

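SNS-seq libraries of 4 groups, 2 per group, were analysed from the deposited files. Per the labels and methods, the authors trimmed reads with Trim Galore 0.6.4 and cutadapt 2.6, aligned them to mm9 with Bowtie 1.2.3 keeping unique alignments, called peaks with MACS without input, made consensus peaks with bedtools, kept those in clusters and merged the peaks of each contrast. Unique alignment thins reads in repeats, and without input differences in DNA content stay in the densities. The deposited values are log2 RPM, pooled by the authors over both replicates and scaled to reads inside ISs. Other deposited columns hold the authors' fold change category, not used here, and numbers of merged peaks (lists of 4 conditions).

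Reads were recovered at 100% of values (tolerance 0.01 reads). The log2 fold change is treated minus control. Its counting SE comes from both read counts. Annotation was GENCODE M1, and sequence was NCBIM37 (mm9). The word measure was computed in a window of 500 bases. Python 3.11.15, numpy 2.4.6, pandas 2.3.3 and scipy 1.17.1 were used, and the scripts were tested on simulated data. The members, gene lists and comparisons were chosen with earlier results of these data known. ISs are named by the nearest gene end. Named per table were the 6 densest, the 4 highest and 4 lowest fold changes among those at or above the median density, the nearest to each side of the 1 kb limit and the 3 densest of each gene list, of which some are not reported here. Planned fits without a replicate or with a replicate block could not be run.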

Additional observations from a re-analysis of the deposited data

How the results depend on the processing

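No paired analysis was possible because each condition has a single pooled number per IS, so no replicate was left out either. Across 14 results, 100 alternatives were computed. By interval, or by a factor of 1.5 for counts, 75 gave the reported value, 25 moved and 0 reversed. Numbers of ISs, shares and GC contents have no sign, so no reversal was possible for them. The 0 applies only to differences in density and median fold changes. At a log2 threshold of 0.32 the share changed after MCM6 depletion, 24.4%, counted as moved. There the split was 216 higher and 220 lower, against 79 and 23 at 1.5-fold. The alternative without repetitive ISs was chosen after seeing the data.

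The number of 3′ end ISs was 371 and 1100 within 500 bp of a gene end, 1051 and 3142 within 2 kb, and 365 and 1166 at over 5 kb from a TSS, by construction. Per kb of width the excess in density was 0.115 in WT, 0.0461 in Rif1KO, 0.0450 in Rif1KO_shLacZ and 0.0114 in Rif1KO_shMcm6 cells, and within 500 bp it was 0.138 in Rif1KO_shMcm6 cells. The median fold change after MCM6 depletion was -0.0597 without the lower quartile of density, -0.0298 less the median of each chromosome and -0.0756 for ISs called in both conditions. GC content in the hairpin table was 49.1% at over 5 kb from a TSS. The share changed after RIF1 loss was 0% at 2-fold, 17.0% at a log2 threshold of 0.32, 0.822% at over 5 kb from a TSS, 0.821% without the lower quartile and 0.514% for ISs called in both conditions. After MCM6 depletion it was 1.01% at 2-fold, 24.4% at 0.32, 3.67% without the lower quartile, 2.69% on log2(RPM + 1) and 1.82% for ISs called in both conditions. At 0.32 the split was 32 higher and 69 lower after RIF1 loss, and 216 higher and 220 lower after MCM6 depletion, against 79 and 23 at 1.5-fold. Where the setting does not act by its construction, the cause was not tested. Single ISs rest on a median of 83 to 170 reads.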
